A study of Mus musculus with 14 samples.

Results

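The miRNA make-up of untreated white matter was read from the 4 arrays labelled as untreated corpus callosum, out of 14 in the series. All 4 were taken, and the values described are the signals of the 566 mouse miRNAs on each array. The other 10 arrays came from mice fed cuprizone, a copper chelator that strips myelin, and from mice returned to regular diet after it. They serve here only in a check of the slides.

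The 4 control mice were labelled male and were kept on a normal diet, with no agent and no altered allele named. The strain of these mice was not given in the sources used here. In the study cuprizone feeding started at 7 to 8 weeks of age, and un-manipulated animals spanning the ages used served as controls. Animals were perfused with saline before the brain was frozen, and the callosum was cut from sections of 200 µm. From each sample 100 ng of total RNA with an RNA integrity number above 8.0 was labeled with Cy3 and hybridized to an array of its own. Each array was taken as 1 mouse, as the methods count them, and the replicates are named by the numbers in their labels.

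The corpus callosum is the main fibre tract between the cerebral hemispheres. It is made of myelinated axons, oligodendrocytes that wrap them, astrocytes, microglia and vessels, while the cell bodies of the neurons lie in the cortex. A miRNA is a short RNA cut from a hairpin precursor. Loaded on an Argonaute protein, it pairs with messenger RNAs mainly through its seed, bases 2 to 8, and lowers their translation and stability, so miRNAs with one seed share most of their targets. Several miRNAs mark cell types of the brain, among them miR-219 and miR-338, which promote the maturation of oligodendrocytes, and miR-124 and miR-128, which are typical of neurons.

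The sequences below, from RefSeq (GRCm38.p6), are those of the miRNAs on which the description turns, with the seed in capitals. Of the 217 miRNAs detected on all 4 arrays, 179 (82.5%) had a sequence in this table, 38 of them under the array's name and 141 under the name in present use. The array's names carry no arm for most miRNAs, and the arm was taken from the present name. The first 5 are members of the let-7 family, which restrains growth genes in differentiated cells, and carry the seed that held the largest share of the signal.
let-7a: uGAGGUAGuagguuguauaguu
let-7b: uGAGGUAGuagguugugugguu
let-7c: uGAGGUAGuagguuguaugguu
let-7e: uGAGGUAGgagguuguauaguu
let-7f: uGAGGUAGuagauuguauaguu
The miR-29 family, known for silencing collagens, and miR-125b-5p carry the seeds next in share.
miR-29a: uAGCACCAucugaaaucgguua
miR-29b: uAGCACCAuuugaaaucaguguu
miR-29c: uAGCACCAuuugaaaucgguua
miR-125b-5p: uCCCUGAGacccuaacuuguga
The next are miRNAs linked to neurons (miR-128), to both strands of brain hairpins (miR-9 and miR-9*) and to oligodendrocytes (miR-338-3p and miR-219).
miR-128: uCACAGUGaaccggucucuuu
miR-9: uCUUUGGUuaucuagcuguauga
miR-9*: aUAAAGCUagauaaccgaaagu
miR-338-3p: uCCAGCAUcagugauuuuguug
miR-219: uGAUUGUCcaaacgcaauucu
The last pair had far higher shares on replicate 3 than on the other arrays.
miR-494: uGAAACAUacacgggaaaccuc
miR-204: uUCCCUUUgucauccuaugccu

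The signal of a miRNA is its background-subtracted brightness summed over its probes, on a linear scale, and its share is the percent of the summed signal of all mouse miRNAs on that array, with negative signals set to 0. Brightness also depends on how well each miRNA is labeled and hybridized, so the order given is one of signal, not of molecules. The summed signal was 155627, 119858, 85797 and 174172 on replicates 1 to 4, and the image software detected 236, 246, 268 and 287 miRNAs. No spot was saturated. Undetected miRNAs held 0.107% to 0.247% of the signal. Replicates 1 and 2 lay on slide 1 and replicates 3 and 4 on slide 2.

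Replicate 3 stood apart from the other arrays. Over the 217 miRNAs detected on all 4 arrays, the rank correlation of the signals was 0.87 between replicates 1 and 3, 0.93 between replicate 3 and either of replicates 2 and 4, and 0.97 in the 3 pairs without replicate 3. Replicate 1 had the highest or lowest share for 152 of the 217 miRNAs and replicate 3 for 157, against 67 for replicate 2 and 57 for replicate 4. These 2 arrays thus held most of the extremes, and means that moved more than 1.5-fold when replicate 3 was left out are given without it as well.

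On all 4 arrays 217 miRNAs were detected (38.3%), on 1 to 3 arrays 93, and on none 256 (45.2%). The 217 held 99.2% ± 0.47 (SD, n = 4) of the signal. Within them the mean share fell 6445-fold from the brightest to the dimmest, and 29 miRNAs had 1% or more, 68 had 0.1% to 1% and 120 had less than 0.1%. The 3 dimmest were miR-330 (mean 0.00103%), miR-539 (0.00269%) and miR-805 (0.00340%). Without replicate 4 these means were 0.000589%, 0.00168% and 0.00211%. Of the miRNAs detected on no array, the brightest were miR-490 (0.00587%), miR-669a (0.00528%) and miR-378* (0.00441%), so detection did not follow brightness alone at this end of the range. The flag of the image software also passed 4 miRNAs whose signal was under 1 on some array.

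The signal was concentrated in few miRNAs. By mean share, 5 miRNAs held 25% of the signal, 13 held 50%, 32 held 75%, 66 held 90% and 186 held 99%. On single arrays 12 miRNAs held 50% on each, and 60 to 68 held 90%. The 10 brightest together had 45.6% ± 1.64 (SD, n = 4), between 44.2% and 47.7% by array. Membership of the brightest set was less steady than its share: 7 miRNAs were among the 10 brightest on every array, and 14 were among them on at least 1.

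**Figure D1:**
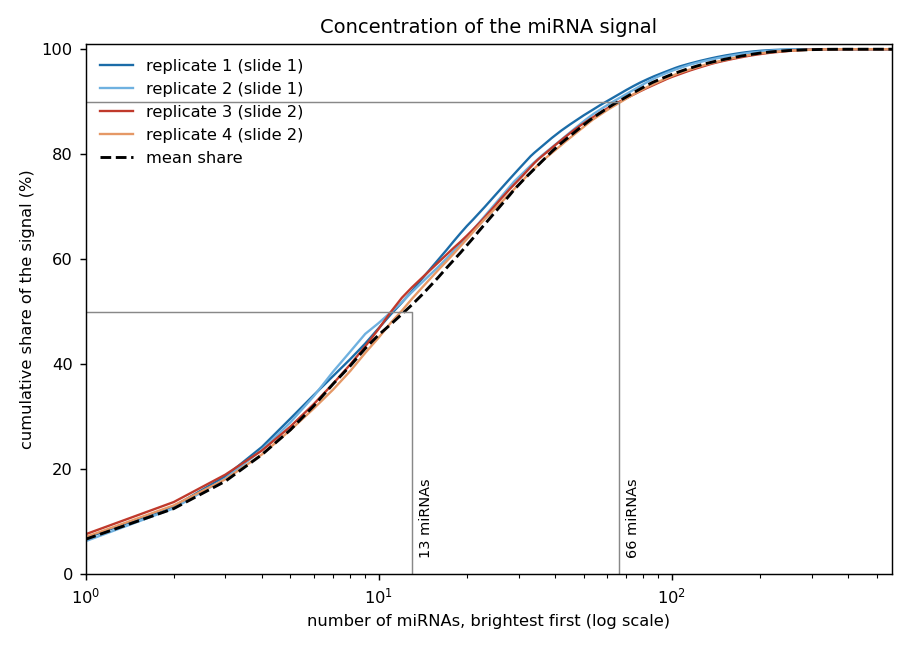
Cumulative share of the miRNA signal (%, vertical axis) against the number of miRNAs taken from the brightest down (log scale). Coloured lines are the 4 untreated arrays, the dashed line is the mean share, and grey lines mark the 13 and 66 miRNAs that held 50% and 90%. The 4 curves lie close together.

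The let-7 family was the largest group. Its 9 members on the array, miR-98 included, were all detected on all 4 arrays and had 28.8%, 27.7%, 19.7% and 25.1% of the signal on replicates 1 to 4, a mean of 25.3% ± 4.06 (SD, n = 4), and 27.2% without replicate 3. let-7a was the brightest member with 6.86%, 6.27%, 4.25% and 6.04%. let-7f had 5.72%, 4.75%, 2.70% and 4.97%. For both, replicate 3 was the lowest array, and the other 3 lay within 1 percentage point of each other. let-7c (mean 5.07% ± 0.54) and let-7b (3.32% ± 0.40) varied less. The dimmest member, miR-98, had 0.196% ± 0.044. Members, some of which are printed above, differ at few bases: over the 36 pairs of all 9, from 1 to 6 of 22 bases. Positions counted from 1 at the 5′ end, let-7a and let-7c differ by A19G, let-7a and let-7e by U9G, let-7a and let-7f by G12A, and let-7b and let-7c by G17A. Probes may therefore read part of the signal of a near relative, and shares of single members are less certain than that of the family.

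miR-125b-5p, a miRNA abundant in brain, was the brightest single miRNA by mean share. It had 5.62%, 6.26%, 7.59% and 7.05% of the signal, a mean of 6.63% ± 0.87 (SD, n = 4). It was the first on replicates 3 and 4, and let-7a was brighter on replicates 1 and 2. Its relative with the same seed, miR-125a-5p, had 0.348% ± 0.092, and miR-351 was detected on no array. The 3 members of the miR-29 family had 7.69% ± 1.33 together, of which miR-29a had 4.24% ± 0.76, miR-29b 2.01% ± 0.63 and miR-29c 1.44% ± 0.22. miR-29a and miR-29c differ by the single base C10U. miR-26a, which acts in cell growth and is broadly expressed, had 3.42% ± 0.43.

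Also among the 20 brightest were miR-709 (2.59% ± 0.64) and miR-720 (1.78% ± 0.44). miR-720 is an entry that miRNA catalogues have since treated as a fragment of a transfer RNA. Grouped by seed over all miRNAs with a sequence, the first 5 seeds, those of let-7, miR-29, miR-125, miR-128 and miR-26, held 49.1% of the signal and the first 10 held 58.1%. miR-124 and miR-23b, among others, had no entry in the sequence table and are left out of these sums.

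**Figure D2:**
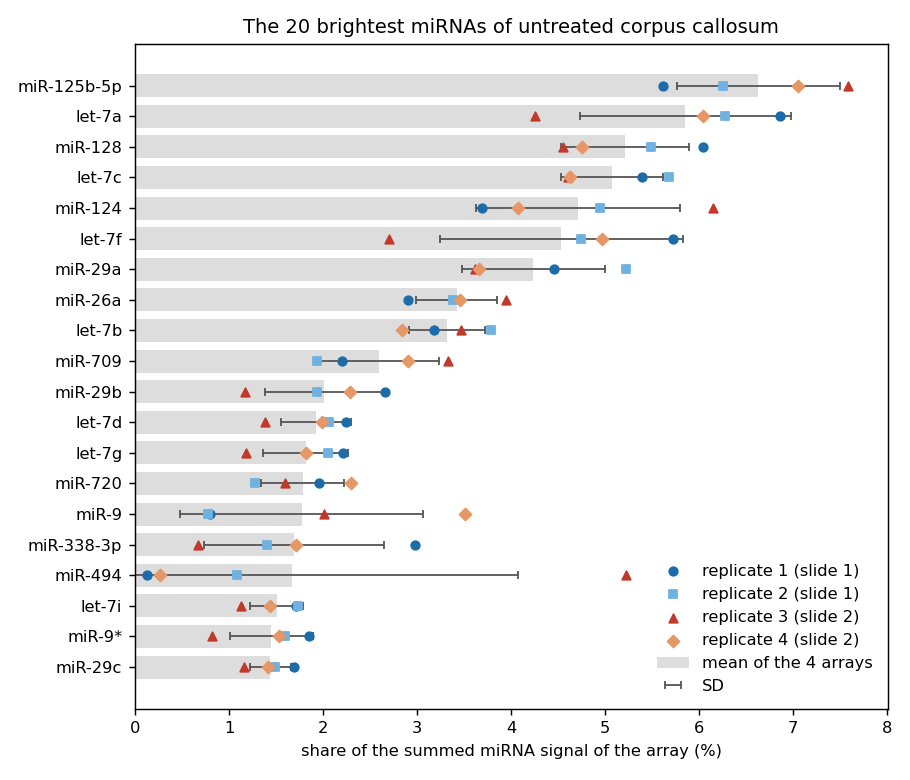
Share of the summed miRNA signal (%) of the 20 miRNAs of highest mean share. Bars are means of the 4 untreated arrays, whiskers are SDs (that of miR-494 is cut at 0), and symbols are the single arrays. Replicate 3 is the lowest array for let-7a, let-7f and miR-338-3p and far above the others for miR-494.

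The order among the brightest miRNAs was not resolved between neighbours. In the 20 neighbouring pairs from the brightest miRNA to the 21st, the higher one was higher on 4 of 4 arrays in 1 pair only, let-7d above let-7g, and the mean log2 ratio did not exceed its SD in any pair. miR-125b-5p lay above let-7a by a log2 ratio of 0.19 ± 0.48 (SD, n = 4) and on 2 of 4 arrays. miR-128 lay above let-7c by 0.04 ± 0.09, also on 2 of 4. With 4 arrays an exact test of such a pair cannot reach 0.05, so no test was made of the order.

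miRNAs linked to oligodendrocytes, the cells that give the tissue its myelin, were present on all 4 arrays. miR-338-3p had 2.98%, 1.40%, 0.672% and 1.71% of the signal on replicates 1 to 4. miR-219 had 1.41%, 0.609%, 0.177% and 0.670%. Both were highest on replicate 1 and lowest on replicate 3, with replicates 2 and 4 between. miR-138 did the opposite, with 0.133%, 0.190%, 0.375% and 0.354%. The 5 miRNAs of the list, with miR-338-5p and miR-138* added, were all detected on all 4 arrays. They had 4.54%, 2.22%, 1.27% and 2.78%, a 3.58-fold range, and a mean of 2.70% ± 1.37 (SD, n = 4). The mean was 3.18% without replicate 3 and 2.09% without replicate 1. In such bulk samples fewer cells of a type and less RNA per cell cannot be told apart.

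miRNAs linked to neurons had a larger and steadier share. The 11 on the list had 12.8%, 14.1%, 14.1% and 12.5%, a mean of 13.4% ± 0.85 (SD, n = 4), and 10 were detected on all 4 arrays. The list was thus 1.13-fold higher on its highest than on its lowest array. miR-128 had 6.04%, 5.49%, 4.56% and 4.76%. miR-124, which represses non-neuronal genes, had 3.69%, 4.94%, 6.14% and 4.08%. The pair went opposite ways on replicate 3, where miR-128 was lowest and miR-124 highest, and their changes offset each other in the sum. miR-129-3p had 1.37% ± 0.19 and miR-132, which responds to neuronal activity, 1.05% ± 0.16. miR-218 had 0.410% ± 0.106, miR-137 0.231% ± 0.093, miR-153 0.0814% and miR-212 0.0836%. miR-134, studied for its place in dendrites, was detected on 2 of 4 arrays.

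The 7 miRNAs of a list linked to astrocytes, which holds the miR-29, miR-26 and miR-23 families, had 13.9% ± 1.28 (SD, n = 4). These families are also expressed widely outside astrocytes. The hairpins of miR-9, a miRNA of neural progenitors and mature brain, lie on chromosomes 3, 7 and 13. Their signals cannot be told apart, and together they gave 3.22% ± 1.23 from both strands, from 2.37% to 5.04%. miR-204, which is typical of choroid plexus and pigmented epithelia, had 0.231%, 0.446%, 1.70% and 0.437%, so that replicate 3 was 3.80-fold above the next array. Its relative miR-211 was detected on 2 arrays. The pair had 0.715% ± 0.684 (SD, n = 4) of the signal, and 0.376% without replicate 3, of which miR-204 had 0.372%.

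miRNAs linked to immune cells were dim. The 8 of the list for microglia and myeloid cells had 0.546% ± 0.069 (SD, n = 4), of which miR-342-3p, which neurons also express, had 0.466% ± 0.072. miR-223, abundant in granulocytes and monocytes, had 0.00739% ± 0.00116 and was detected on all 4 arrays. miR-142-3p, which marks blood cells in general, was detected on 2 of 4 arrays with a mean of 0.00894%. miR-155, induced in activated myeloid cells, was detected on none. Of the list for lymphocytes, miR-150 had 0.0270%, 0.0346%, 0.126% and 0.109%, low on both arrays of slide 1 and high on both of slide 2.

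The miRNAs that the study followed lay between ranks 55 and 165 of 566. miR-146a, a brake on innate immune signalling, had 0.0312%, 0.0268%, 0.0264% and 0.0251%, a mean of 0.0274% ± 0.0027 (SD, n = 4) and rank 165. Its spread was among the smaller ones, with a coefficient of variation (CV, the SD as a percent of the mean) of 9.70%. Its relative miR-146b had nearly the same share, 0.0279% ± 0.0032. miR-181b had 0.299% ± 0.037 and rank 55. The entry miR-193 had 0.0332% ± 0.0128 and rank 152, with 0.0503%, 0.0231%, 0.0236% and 0.0358%, and miR-193b had 0.0913% ± 0.0405.

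Markers of vessels and blood were detected at low shares. miR-126-3p of endothelium had 0.392% ± 0.083 (SD, n = 4), and the muscle miRNAs of vessel walls, miR-143, miR-145 and miR-145*, had 0.0405% ± 0.0165 together. Of these, miR-143 was detected on all 4 arrays, miR-145 on 2 and miR-145* on none. miR-451, the main miRNA of red blood cells, had 0.387%, 0.211%, 0.228% and 0.216%, highest on replicate 1. miR-486 had 0.00568%, 0.0101%, 0.0297% and 0.0133%, a mean of 0.0147% ± 0.0105 (SD, n = 4) and 0.00969% without replicate 3. miR-144, made from the same precursor transcript as miR-451, was detected on no array. The list for ciliated ependyma, the lining of the ventricles next to the callosum, had 0.427% ± 0.042. miR-34b-5p had 0.205% and miR-34c 0.177% of it, while miR-449a, miR-449b and miR-449c were detected on no array.

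**Figure D3:**
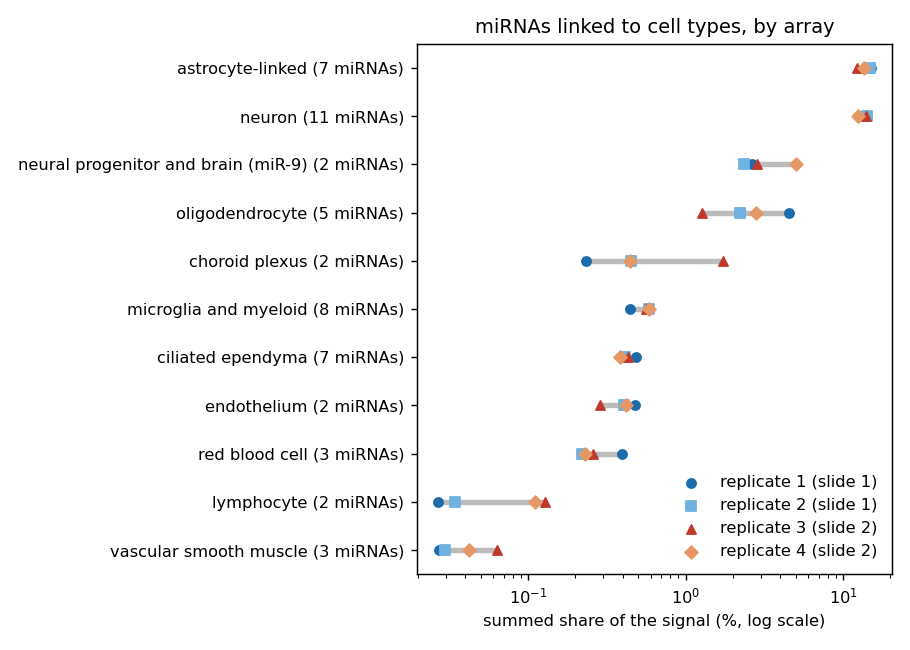
Summed share of the signal (%, log scale) of miRNAs linked to each cell type, by array, with the number of miRNAs of each list on the array. Grey bars span the 4 arrays. The lists for astrocytes and neurons had the largest shares, at 12.3% to 15.0% and 12.5% to 14.1%. The lists for oligodendrocytes, choroid plexus and lymphocytes were spread most widely.

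miRNAs typical of other tissues were dim or undetected. Of 35 such miRNAs, from striated muscle, liver, pancreatic islet, epithelium, embryonic stem cells, retina and inner ear, 27 were detected on no array, 6 on 1 to 3 arrays and 2 on all 4. Together they had 0.0717% ± 0.0175 (SD, n = 4) of the signal. Such small sums depend on the processing: the stem cell list had 0.00791% here and -0.00934% to 0.171% under the alternatives described below. Those detected on all 4 arrays were miR-375 (0.0140%), best known from pancreatic islets, and miR-133b (0.0137%), best known from muscle. The muscle miRNAs miR-1 (0.0120%) and miR-133a (0.00777%) were detected on 3 arrays, the epithelial miR-200b on 2, and miR-429, miR-203 and miR-200a on 1 each. All 16 miRNAs of the stem cell clusters, miR-122 of liver and the miR-183 cluster of sensory cells were undetected on every array.

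Among other families, the 14 miRNAs of the miR-17-92 cluster and its paralogs, which are high in dividing cells, had 0.649% ± 0.176 (SD, n = 4), with 8 detected on all 4 arrays and 3 on none. The miR-15 and miR-16 family had 1.93% ± 0.59, the miR-103 and miR-107 pair 1.92% ± 0.24, the miR-99 and miR-100 family 1.15% ± 0.20 and the miR-181 family 1.14% ± 0.34. miR-24 had 1.21% ± 0.14. The 5 members of the miR-30 family had 1.21%, 1.56%, 2.41% and 2.93%, lower on both arrays of slide 1. The miR-27 pair was steadier, at 0.755% ± 0.067, and the miR-34 family had 0.695% ± 0.080.

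The imprinted Dlk1-Dio3 region on chromosome 12, whose miRNAs are expressed from the maternal allele and are found in brain, holds the longest run of miRNA hairpins considered. Of its 52 miRNAs on the array, 34 were detected on all 4 arrays and 11 on none. They had 3.71%, 5.45%, 9.37% and 4.64% of the signal, a mean of 5.79% ± 2.49 (SD, n = 4), and 4.60% without replicate 3. Its brightest member by the mean of the 4 arrays was miR-494, with 0.123%, 1.08%, 5.22% and 0.268%, which had rank 3 on replicate 3 and ranks 27 to 86 on the others. miR-127 (0.846% ± 0.253) and miR-434-3p (0.636% ± 0.085) were its next brightest members. Without replicate 3 the order turned, with means of 0.736% for miR-127, 0.655% for miR-434-3p and 0.491% for miR-494.

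Positions in the RefSeq table (GRCm38.p6) put 113 of the 179 miRNAs into 42 runs. In a run, mature sequences on one DNA strand lie within 10 kb of the next. Both strands of a single hairpin count as a run by this rule, as with miR-9 and miR-9*, so not every run joins separate hairpins. These 113 miRNAs held 54.6% of the signal. Members of a run did not have equal signals. let-7a, let-7f and let-7d lie in a run on chromosome 13 with means of 5.85%, 4.53% and 1.92%. miR-99a and let-7c lie together on chromosome 16 with 0.560% and 5.07%, a 9.06-fold difference. miR-29a and miR-29b on chromosome 6 differed 2.11-fold. let-7f, let-7c and miR-29b are among 24 miRNAs with more than 1 locus in this table, which may not list every locus. The signal cannot be divided between loci.

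Star strands, the strand of a hairpin that the array's nomenclature took as the minor one, had 2.32% ± 0.38 (SD, n = 4) of the signal. Of 115 on the array, 24 were detected on all 4 arrays and 67 on none. The share without miR-9* was 0.875% ± 0.088. In 20 hairpins both strands were detected on all 4 arrays, and the star strand had a median of 10.4% of the signal of its partner. In 15 of the 20 it was the dimmer strand on every array. The extreme was miR-124*, at 0.286% of miR-124. In 3 hairpins the star strand was the brighter on every array: miR-140* (172% of miR-140), miR-674* (530% of miR-674) and miR-330*, whose partner was near the detection limit. For miR-299*, with 0.0298% of the signal, the partner was detected on no array.

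The strands of miR-9 changed places between slides. miR-9 had 0.799%, 0.772%, 2.01% and 3.51% of the signal on replicates 1 to 4. miR-9* had 1.85%, 1.59%, 0.818% and 1.53%. The star strand was thus at 232% and 207% of its partner on slide 1 and at 40.7% and 43.5% on slide 2. With 2 arrays on each slide, values without overlap often arise by chance, and the separation was not tested. Some of the other hairpins separated by slide as well, while the ratios of most overlapped between slides. miR-136* was at 50.7% and 53.4% of miR-136 on slide 1 and 19.8% and 22.1% on slide 2. miR-411* crossed equal signals the other way, at 92.4% and 95.5% of miR-411 on slide 1 and 105.8% and 104.9% on slide 2. By contrast, miR-30e* was at 23.8% to 27.4% of miR-30e on all 4 arrays.

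**Figure D4:**
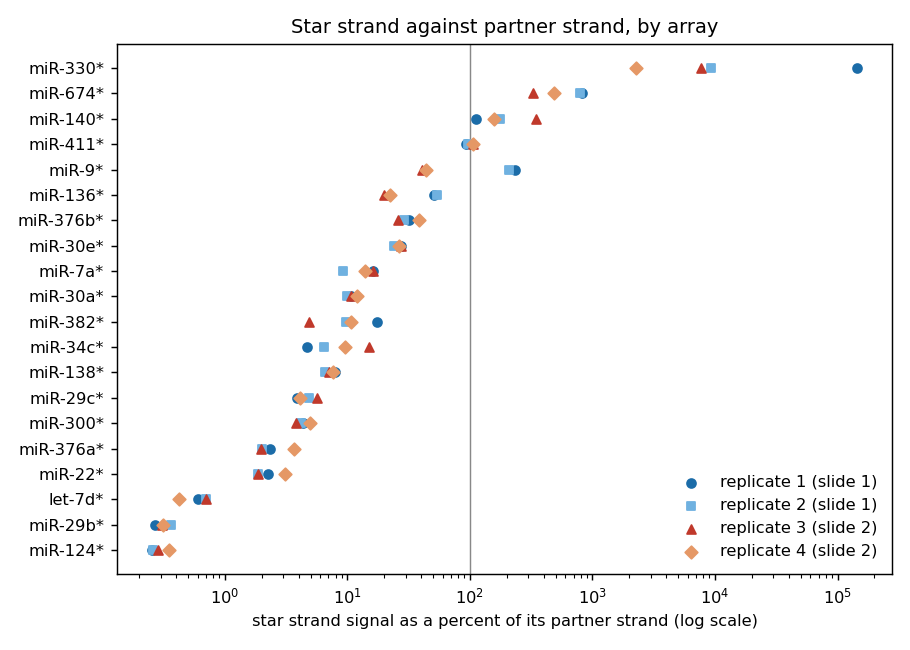
Signal of the star strand as a percent of its partner strand (log scale) in the 20 hairpins with both strands detected on all 4 arrays. Symbols are single arrays, and the vertical line marks equal signals. miR-9* lies right of the line on both slide 1 arrays and left of it on both slide 2 arrays. miR-411* crosses it the other way, close to equal signals, while the other hairpins keep to one side.

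The spread between arrays had a median CV of 26.0% over the 217 miRNAs, from 4.65% to 144%. The CV was under 20% for 76 miRNAs and over 50% for 36, and 92 differed more than 2-fold between their highest and lowest array. It was larger for dim miRNAs, with a median of 35.8% among the 55 dimmest and 22.7% among the 54 brightest. Replicate spots of one probe on one array had a median CV of 7.51%, which leaves out labelling and hybridization. The steadiest miRNAs were miR-676 (4.65%), miR-425 (4.89%), miR-27b (5.79%), miR-873 (5.85%) and miR-103 (6.77%). miR-103 is often used to scale miRNA measurements, and had 0.855%, 0.961%, 0.827% and 0.853% of the signal.

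The least steady were miR-494 (144%), miR-574-5p (139%), miR-706 (137%), miR-671-5p (125%) and miR-805 (116%). The first 4 of these were highest on replicate 3. miR-574-5p had 0.0120%, 0.0329%, 0.302% and 0.0456%, and miR-671-5p had 0.00606%, 0.0140%, 0.0874% and 0.0144%. miR-1224 showed the same order of arrays as miR-494, with 0.261%, 1.18%, 3.22% and 0.372%. All 5 of those highest on replicate 3, miR-1224 included, had their lowest share on replicate 1. Without replicate 3 their means were 0.491% for miR-494, 0.605% for miR-1224, 0.0302% for miR-574-5p, 0.0115% for miR-671-5p and 0.00677% for miR-706. The CV then was 105% for miR-494, 83.1% for miR-1224, 56.2% for miR-574-5p, 41.1% for miR-671-5p and 86.0% for miR-706.

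The deviations of replicates 1 and 3 went with the GC content of the miRNAs. Over the 179 miRNAs with a sequence, the rank correlation of the GC content with an array's log2 deviation from the mean of the other 3 was -0.58 on replicate 1, 0.07 on replicate 2, 0.63 on replicate 3 and -0.27 on replicate 4. The deviations share the same 4 arrays, and miRNAs are not independent replicates. The 65 miRNAs with a GC content of 40.9% or less, let-7a, let-7f, miR-338-3p and miR-219 among them, had 51.5%, 45.5%, 33.3% and 46.6% of the signal on replicates 1 to 4. The 47 with 52.2% or more had 5.42%, 7.68%, 10.6% and 6.60%. The lists for oligodendrocytes and let-7 moved with this property, but they share members with the low GC group. All let-7 members but let-7b are in it, so its shares include most of the let-7 list itself. Their moving together is thus partly built in, and the part of GC content in the spread of the lists was not tested.

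**Figure D5:**
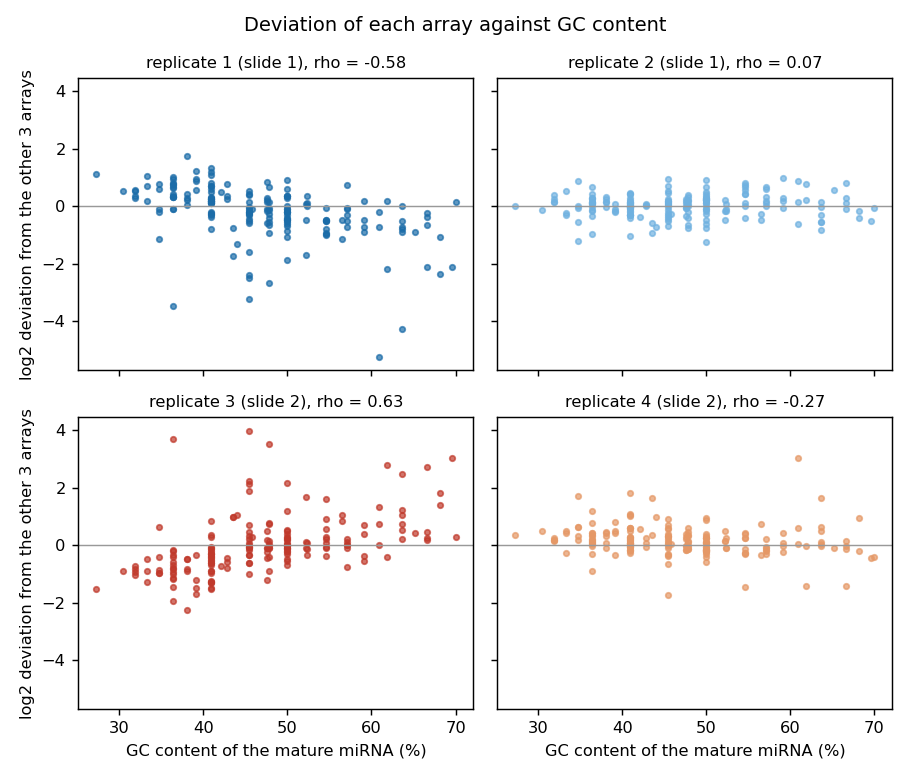
Log2 share of each of 179 miRNAs on an array minus the mean of the other 3 arrays (vertical axis), against the GC content of the mature miRNA (%). Each panel is an array, and rho is the rank correlation. Low GC miRNAs tend to lie above 0 on replicate 1 and below 0 on replicate 3. Some go the other way, such as miR-9 (34.8% GC), at -1.14 on replicate 1 and 0.64 on replicate 3.

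The slides were compared with limma, on the log2 signal scaled to each array's 75th percentile. At a Benjamini-Hochberg adjusted p under 0.05, 1 of 217 miRNAs differed (0.461%), and 23 had an unadjusted p under 0.05. The count was 0 after quantile normalization, with trend and robust estimation and without replicate 1 or replicate 2, and 8 without replicate 4. The called miRNA was miR-805, with signals of -1.28 and -1.46 on slide 1 and 5.44 and 12.7 on slide 2. Its log2 difference of 3.49 (standard error 0.28, adjusted p = 0.0100) was set by the floor put under low signals and is no measure of size. miR-9, miR-30c and miR-150 did not pass: their log2 differences, slide 2 minus slide 1, were 1.72 (standard error 0.36, adjusted p = 0.146), 1.94 (standard error 0.36, adjusted p = 0.146) and 1.90 (standard error 0.30, adjusted p = 0.141). In a fit of all 14 arrays with group as a covariate, which has more arrays on each slide, limma called 67 of the 217 (30.9%), 41 higher and 26 lower on slide 2.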

How the data were processed

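Small RNA in total RNA of untreated corpus callosum was hybridized to Agilent miRNA arrays of 1 colour, for 4 mice. The files deposited from the scanner give linear intensity. To make them, the authors used Agilent Feature Extraction (version 10.5.1.1 in the submitters' processing notes and file headers, another one in the methods), which took off the background, added up the probes of a miRNA and set a flag for detection. The authors deposited log2 values of the same arrays. For 1232 of 1234 signals over 1, these equal the log2 of the total signal minus 1 constant per array, within 0.01, and they were used only as an alternative. They cover 560 of the 566 mouse miRNAs.

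Shares were computed in Python 3.11.15 (pandas 2.3.3) with no scaling between arrays other than the summed signal. Most miRNAs (563 of 566) had 20 spots. Control spots and 10 viral miRNAs were left out of the sums. The slides, read from the barcodes, were compared with limma 3.58.1 in R 4.3.3 (lmFit and eBayes) over miRNAs detected on all 4 arrays, after scaling to the 75th percentile of these miRNAs and raising low values to 0.00204, the middle of the 4 arrays' lowest positive scaled signals among detected miRNAs. The number of arrays limits the precision. Nothing in the labels ties arrays to separate litters or days, so SDs measure the spread between these samples, part of which may be technical.

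The miRNAs named are the 20 brightest, members of the lists (cell types, other tissues, families, the imprinted region), the 5 steadiest and 5 least steady, the dimmest detected and brightest undetected ones, bright star strands and those the study followed. miR-1224 and strands of the miR-30e, miR-136, miR-140, miR-299, miR-411 and miR-674 hairpins lie outside this rule and were named after their values were seen. The members and lists were chosen with earlier results of these data known. Names follow the array, and the present names used to find sequences were assigned by hand. The array was designed on mm9 and the sequence table is on GRCm38.p6, so chromosomes are given without coordinates. The alternatives were other measures of the signal per miRNA, other denominators and averages, another background correction, single slides, other scalings in the slide comparison and each array left out. The files lack the spots' mean signal, so normexp was run on the median signal. Treated arrays were otherwise not analysed here.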

Additional observations from a re-analysis of the deposited data

Results flagged for a closer look

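Of 75 values by array (the summed signal, the number of miRNAs detected, the lists and named miRNAs), 7 had a highest or lowest array that stood off from the other 3 by more than Dixon's 95% critical value for 4 samples, where chance flags about 1 in 20. That rate cannot be held against this count, since some of the miRNAs were chosen for their spread over the same arrays, miR-574-5p and miR-671-5p among them, and miR-204 makes up nearly all of the choroid plexus list. Replicate 3 was the high array for 4 of them. On it the choroid plexus list had 1.73% of the signal, miR-204, its main member, 1.70%, miR-574-5p 0.302% and miR-671-5p 0.0874%. Replicate 1 was high for the miR-27 list with 0.854% and for miR-451 with 0.387%, and low for miR-129-3p with 1.09%.

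The arrays also carry 10 viral miRNAs, which the comparisons do not use. The image software detected 3 of 40 combinations of array and viral miRNA (7.50%). These were mghv-miR-M1-2 on replicate 3 with a signal of 18.6 and on replicate 4 with 27.5, and mghv-miR-M1-8 on replicate 2 with 8.26. No viral miRNA was detected on all 4 arrays.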

How the results depend on the processing

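Of the 32 list shares, 8 moved by more than 1 SD between arrays with normexp at offset 0 and 0 to 4 under each other alternative. Of the 208 miRNAs of the lists and rules, 48.6% moved that far with normexp, and 0 to 42 miRNAs did under each other one. Other averages of the 4 arrays, single slides and each array left out cannot move a share by more than 1 SD of the same arrays. Their 0 for lists and miRNAs was thus fixed in advance and is no measure of steadiness. With the brightest probe of each miRNA in place of the sum, the 10 brightest miRNAs had 47.4% of the signal, and with normexp at offset 0 they had 43.0%, while star strands rose to 3.33% and 94 miRNAs in place of 66 were needed for 90%. The median CV was 20.99% with normexp, 17.6% on slide 1 alone and 21.4% on slide 2 alone. The slide values rest on 2 arrays each, and an SD from 2 values tends to come out lower than 1 from 4. They therefore cannot be set against the 26.0% of the 4 arrays as less spread within a slide. The median CV lay between 21.1% (without replicate 3) and 30.1% (without replicate 4) with 1 array left out. The slide comparison by limma called 0 miRNAs after quantile normalization (20 at an unadjusted p under 0.05) and with trend and robust estimation (21), 2 without scaling and with normexp at offset 50, 3 with no filter on detection, 67 in the fit of all 14 arrays, and 0 to 8 with 1 array left out: 0 without replicate 1 (8 at an unadjusted p under 0.05), 0 without replicate 2 (18) and 8 without replicate 4. In those fits the spread of the slide left with a single array was taken from the remaining pair. The highest share belonged to let-7a, not miR-125b-5p, on slide 1 alone and without replicate 3. No paired analysis was possible because 1 group was described and its replicate numbers have no partner. Requiring a signal above every viral miRNA left 164 miRNAs in place of 217, and detection on 1 or more arrays gave 310. Of the 10 brightest miRNAs all 10 stayed with the spot mean, the brightest probe, normexp and the deposited values.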

Other observations

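Over the 179 miRNAs with a sequence, the rank correlation of the mean share with GC content was -0.19 and with length 0.02, both given as descriptions, since labelling and hybridization also act on the signal. GC content ran from 27.3% to 70.0% with a median of 45.5%, and length from 19 to 25 bases with a median of 22. By the last base, 81 miRNAs ended in U and held 48.1% of the signal, of which the let-7 family had 25.3%. Another 35 ended in A with 18.8%, 35 in G with 11.1% and 28 in C with 6.40%. The 179 together held 84.4%. Median shares had another order, at 0.143% for G, 0.0913% for U, 0.0632% for C and 0.0566% for A. Where a miRNA had more than 1 probe with positive signal, the brightest was a median of 2.17 times the dimmest over 207 miRNAs.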
